A study of Homo sapiens with 12 samples.

Results

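The 10 genes that write, erase or read DNA methylation were followed in OCI-Ly7, an established line of human diffuse large B-cell lymphoma, in 3 mutant lines and the line they derive from. They were taken by name from a table of 28278 genes: DNMT1, UHRF1, DNMT3A, DNMT3B, TET1, TET2, TET3, TDG, MBD2 and MBD4. All 10 were in the table. RNA was counted by MARS-seq, a method that sequences barcoded cDNA, and none of the lines was treated. The EZH2 mutant carries EZH2 Y646N, which the series describes as gain of function, and has 2 libraries here. The KMT2D mutant is kmt2d-/- and has 3 libraries. The double mutant is kmt2d-/- with EZH2 Y646N and has 3 libraries, and wild type (WT) is the OCI-Ly7 line without either mutation, with 3 libraries. All mutants were made by CRISPR on the OCI-Ly7 background, and the labels do not say how many clones stand behind each line. EZH2 methylates histone H3 at lysine 27 in Polycomb repressive complex 2, and KMT2D methylates histone H3 at lysine 4.

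DNA methylation in mammals sits mostly on the cytosine of CG dinucleotides. DNMT1 copies it onto the new strand behind the replication fork, where UHRF1 recognises the hemimethylated site and brings DNMT1 to it. DNMT3A and DNMT3B methylate sites that carried no mark. TET1, TET2 and TET3 oxidise methylated cytosine, and the glycosylase TDG cuts out the oxidised bases so that base excision repair can restore cytosine. MBD4 removes thymine that arises when methylated cytosine loses its amino group, and MBD2 binds methylated DNA and recruits the NuRD repressor complex. TET2 and DNMT3A are known as recurrent mutation targets in blood cancers.

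The promoters of the 3 genes that fell in mutants with altered EZH2 are shown, because the proteins they encode act on the same CG dinucleotides that are written here in capitals. Each window runs from 250 bases before to 50 bases after the start of transcription in RefSeq on GRCh38.p14, read 5′ to 3′ on the strand of the gene. The windows are chr19:10194904-10195203 on the minus strand for DNMT1, chr20:32779602-32779901 on the plus strand for DNMT3B, and chr3:129439899-129440198 on the minus strand for MBD4.
DNMT1: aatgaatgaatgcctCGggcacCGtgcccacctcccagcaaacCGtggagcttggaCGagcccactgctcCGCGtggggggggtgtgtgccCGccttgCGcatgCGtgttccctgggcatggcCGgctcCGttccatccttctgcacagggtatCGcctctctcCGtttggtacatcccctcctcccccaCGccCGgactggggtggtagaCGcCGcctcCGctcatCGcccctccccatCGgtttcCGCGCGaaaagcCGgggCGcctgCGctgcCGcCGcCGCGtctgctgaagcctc
DNMT3B: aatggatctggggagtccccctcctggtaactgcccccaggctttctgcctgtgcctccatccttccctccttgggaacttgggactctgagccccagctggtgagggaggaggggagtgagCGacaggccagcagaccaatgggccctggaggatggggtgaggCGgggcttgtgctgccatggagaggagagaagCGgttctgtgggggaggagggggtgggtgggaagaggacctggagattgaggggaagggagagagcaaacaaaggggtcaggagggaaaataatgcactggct
MBD4: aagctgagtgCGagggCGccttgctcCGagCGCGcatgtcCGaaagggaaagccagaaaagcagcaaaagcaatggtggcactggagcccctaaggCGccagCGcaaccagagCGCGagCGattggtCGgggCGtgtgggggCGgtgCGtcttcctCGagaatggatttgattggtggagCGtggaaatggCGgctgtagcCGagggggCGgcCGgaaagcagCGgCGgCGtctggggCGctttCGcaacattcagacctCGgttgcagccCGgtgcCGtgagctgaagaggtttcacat
The DNMT1 window held 30 CG dinucleotides, the MBD4 window 29 and the DNMT3B window 3, against a median of 14 over 35116 windows of the same length. Fewer CG dinucleotides than in the DNMT3B window were found in 18.2% of all windows. A gene can have other starts than the one shown, and which start these lines use was not measured. The windows were searched on both strands for CCAAT and for the E2F sites TTTCCCGC, TTTCGCGC, TTTGCCGC and TTTGGCGC. The DNMT1 window held TTTCGCGC on the opposite strand, reaching from 2 bases before the start across it, and 3.31% of all windows held any of the E2F sites. CCAAT was found 113 bases before the start of DNMT3B and at 80 and 129 bases before the start of MBD4, and 34.6% of all windows held it. These matches describe letters only, and methylation itself was not measured in these libraries.

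The libraries held between 1118710 and 3107871 counts, and replicate 1 of the EZH2 mutant was the shallowest. Of 8813 genes with enough counts to test, 7 were among the 10 genes, and each of the 7 had counts in all 11 libraries. Log2 CPM (counts scaled to a fixed library total) of libraries of the same line correlated at 0.960 to 0.983 across genes, which are not independent replicates. B cell markers summed to between 6305 and 10771 CPM per library, and none of the 8 was at 0 in any line. Markers of T and NK cells, myeloid cells and stromal or epithelial cells summed to at most 1.22, 1.85 and 1.41 CPM in any library. The labels do not say that replicates were separate cultures, so each p-value covers no more than the spread among these libraries. These are bulk libraries, in which fewer cells of a type and less RNA per cell cannot be told apart.

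DNMT1 fell in all 3 mutants, and DNMT3B and MBD4 fell in the EZH2 mutant and the double mutant. None of the 7 genes was called higher in any mutant. With edgeR's quasi-likelihood test, adjusted by Benjamini-Hochberg over all genes tested, 3 of 7 were called in the EZH2 mutant against WT, where 32.3% of all genes were called (17.1% higher and 15.1% lower). In the KMT2D mutant 1 of 7 was called, where 7.66% of all genes were called (3.18% higher and 4.48% lower). The double mutant also had 3 of 7 called, where 23.7% of all genes were called (12.1% higher and 11.6% lower). The median log2 fold change of the 7 genes was -0.36 for the EZH2 mutant, 0.03 for the KMT2D mutant and -0.36 for the double mutant, beside -0.04, 0.00 and -0.01 over all genes tested. At an unadjusted p below 0.05, 0 of 7 were higher in each single mutant and 1, DNMT3A, in the double mutant; DESeq2 and limma-voom also called none higher. Upper-quartile scaling placed the median of all genes at log2 -0.20 in the EZH2 mutant and -0.13 in the double mutant, and the share of calls that were higher was then 36.6% and 35.6%, beside 53.1% and 51.2% with the scaling used here. DNMT1, DNMT3B and MBD4 were called lower in both mutants under it as well. The libraries of mutant and WT did not overlap for 3 of 7 genes in the EZH2 mutant, 1 of 7 in the KMT2D mutant and 3 of 7 in the double mutant, against 55%, 26.9% and 38.3% of all genes.

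**Figure D1:**
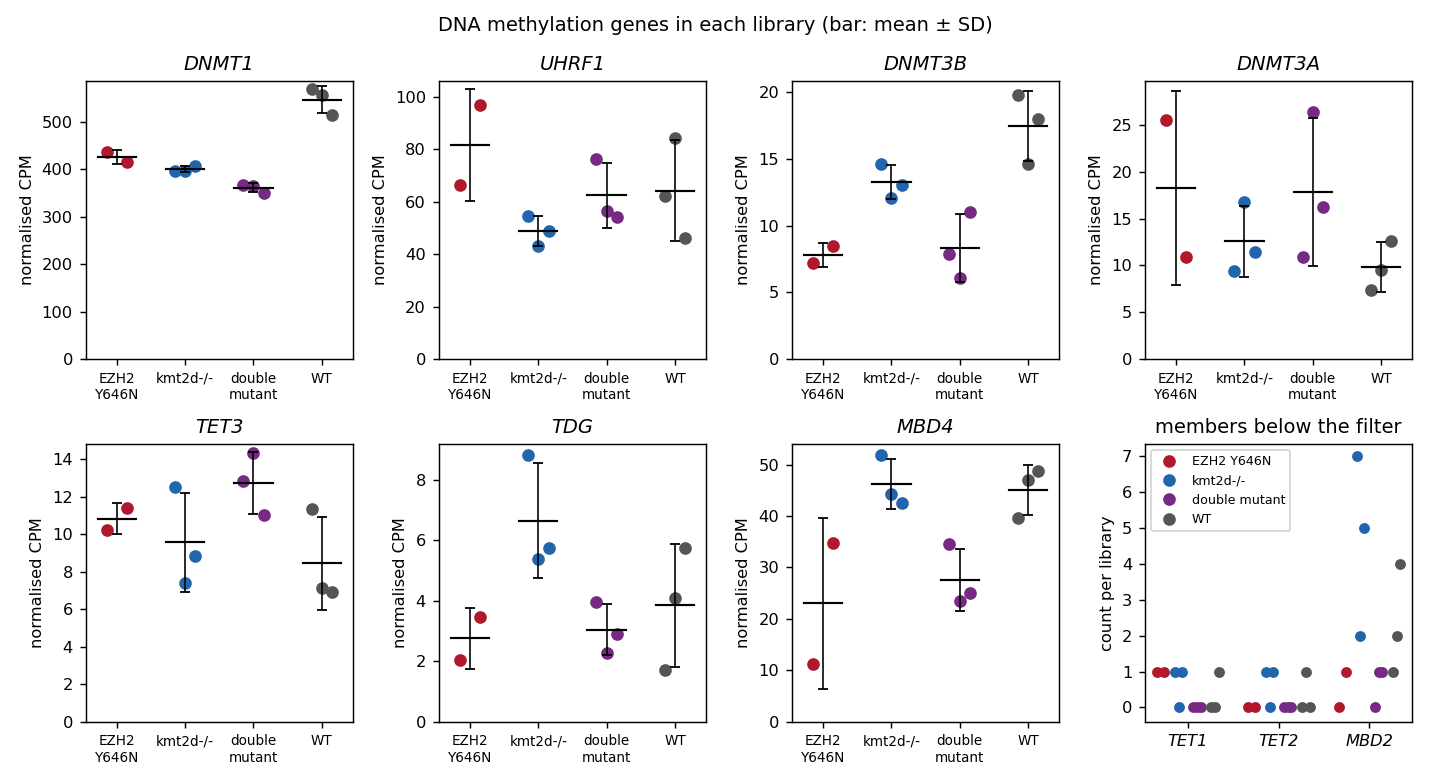
Normalised CPM of the 7 tested genes in each library, with the mean and SD of each line as bars, and counts per library of TET1, TET2 and MBD2 in the last panel. DNMT1 lies between 349.9 and 436.3 CPM in every mutant library and between 514.1 and 568.1 CPM in WT.

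DNMT1, the maintenance methyltransferase, was lower in all 3 mutants. It stood at 436.3 and 415.5 normalised CPM in the EZH2 mutant libraries and at 396.3, 396.1 and 407.4 CPM in the KMT2D mutant libraries. The double mutant libraries held 367.6, 365.6 and 349.9 CPM, and the WT libraries 568.1, 556.3 and 514.1 CPM. Every mutant library lay below every WT library. The EZH2 mutant averaged 425.9 ± 14.7 CPM (SD, n = 2) and the KMT2D mutant 399.9 ± 6.50 CPM (SD, n = 3). The double mutant averaged 361.0 ± 9.72 CPM and WT 546.1 ± 28.4 CPM (SD, n = 3 each). The log2 fold change against WT was -0.36 (SE 0.12) in the EZH2 mutant with an edgeR adjusted p of 0.030, and -0.45 (SE 0.11) in the KMT2D mutant with 0.012. For the double mutant it was -0.60 (SE 0.11), a fold of 0.661, with an edgeR adjusted p of 0.00058. The double mutant call was kept in all 15 alternatives, at log2 -0.75 to -0.57. The KMT2D mutant call was lost without KMT2D mutant replicate 1 (adjusted p = 0.056) or replicate 3 (0.054). The EZH2 mutant call was lost without WT replicate 1 (0.064), EZH2 mutant replicate 1 (0.099) or replicate 2 (0.13), and when only the EZH2 mutant and WT were fitted (0.065).

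In mean normalised CPM, the lines ran in order of DNMT1 as double mutant, KMT2D mutant, EZH2 mutant and WT, from low to high. In counts pooled over each line without the scaling used here, the EZH2 mutant was at 382.4 CPM and the KMT2D mutant at 424.3 CPM. The order of the single mutants therefore depends on the scaling, and the difference between them was not tested. The double mutant libraries lay below those of both single mutants without overlap. The difference of the double mutant was log2 -0.24 (95% interval -0.49 to 0.02) against the EZH2 mutant and -0.15 (-0.37 to 0.08) against the KMT2D mutant, and neither passed the edgeR test (adjusted p = 0.37 and 0.29). The second of these was called with upper-quartile scaling (log2 -0.30, adjusted p = 0.022) and with an abundance trend removed (log2 -0.41, adjusted p = 0.0022). The effects of the mutations were compared by an interaction term, in which a negative value means a lower level in the double mutant than the separate effects add up to. For DNMT1 it was log2 0.21 (95% interval -0.13 to 0.55), with an edgeR adjusted p of 0.59.

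UHRF1, which guides DNMT1 to replicated DNA, did not pass the test in any mutant. It was at 66.6 and 96.8 CPM in the EZH2 mutant, 54.5, 43.0 and 49.0 CPM in the KMT2D mutant, 76.5, 56.6 and 54.0 CPM in the double mutant and 62.2, 84.3 and 46.0 CPM in WT. All 3 mutants overlapped WT. The log2 fold change against WT was 0.37 (95% interval -0.12 to 0.86) in the EZH2 mutant, -0.39 (-0.83 to 0.06) in the KMT2D mutant and -0.04 (-0.48 to 0.41) in the double mutant. UHRF1 overlaps ARRDC5 and MIR4747 in RefSeq, and the strand used in counting is not given in the sources used here, so some of its counts could belong to those genes.

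The count of UHRF1 relative to DNMT1 within each library was chosen after the values were seen and is given without a test. Per 100 DNMT1 counts there were 15.3 and 23.3 UHRF1 counts in EZH2 mutant libraries, and 13.8, 10.8 and 12.03 in KMT2D mutant libraries. The double mutant had 20.8, 15.5 and 15.4, and WT had 10.96, 15.2 and 8.95. Each EZH2 mutant and double mutant library lay above each WT library, by a narrow margin over WT replicate 2, and the KMT2D mutant overlapped WT.

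DNMT3B, a methyltransferase for unmarked sites, fell in the lines with mutant EZH2. Its libraries held 7.17 and 8.44 CPM in the EZH2 mutant, 14.6, 12.1 and 13.0 CPM in the KMT2D mutant, 7.90, 6.04 and 11.04 CPM in the double mutant and 19.8, 14.6 and 18.0 CPM in WT. The EZH2 mutant and the double mutant lay below WT without overlap, and the KMT2D mutant met WT at its edge. The EZH2 mutant averaged 7.80 ± 0.898 CPM (SD, n = 2) and the KMT2D mutant 13.2 ± 1.28 CPM (SD, n = 3). The double mutant averaged 8.33 ± 2.53 CPM and WT 17.5 ± 2.63 CPM (SD, n = 3 each). The log2 fold change against WT was -1.11 (SE 0.33) in the EZH2 mutant and -1.03 (SE 0.28) in the double mutant, with edgeR adjusted p of 0.016 and 0.011. In the KMT2D mutant it was -0.37 (95% interval -0.88 to 0.15) and did not pass. These rest on few counts, 24 in the EZH2 mutant, 100 in the KMT2D mutant, 43 in the double mutant and 125 in WT. The EZH2 mutant call was lost without EZH2 mutant replicate 1 (adjusted p = 0.086) or replicate 2 (0.076) and with an abundance trend removed (0.077). The double mutant call was lost without double mutant replicate 1 (0.054) or replicate 2 (0.055).

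DNMT3A, the other methyltransferase for unmarked sites, did not pass in any mutant, with a fold change above 0 in each. It was at 25.6 and 10.9 CPM in the EZH2 mutant, 9.44, 16.8 and 11.5 CPM in the KMT2D mutant, 10.9, 26.4 and 16.3 CPM in the double mutant and 7.36, 9.52 and 12.7 CPM in WT. Replicate 1 of the EZH2 mutant and replicate 2 of the double mutant were high, and each mutant overlapped WT. The log2 fold change was 0.74 (95% interval -0.14 to 1.63) in the EZH2 mutant, 0.26 (-0.50 to 1.03) in the KMT2D mutant and 0.78 (0.02 to 1.54) in the double mutant, with edgeR adjusted p of 0.19, 0.73 and 0.13. The EZH2 mutant value was log2 0.15 without its replicate 1 (adjusted p = 0.86) and log2 1.35 without its replicate 2, which was called (adjusted p = 0.043) and rests on 1 EZH2 mutant library.

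The balance of the DNMT3 counts was also chosen after the values were seen and is given without a test. DNMT3A made up 78.1% and 56.4% of the DNMT3A and DNMT3B counts in EZH2 mutant libraries, and 39.2%, 58.1% and 46.9% in KMT2D mutant libraries. It made up 57.9%, 81.4% and 59.6% in the double mutant and 27.1%, 39.4% and 41.3% in WT. All EZH2 mutant and double mutant libraries lay above all WT libraries, and the KMT2D mutant overlapped the WT range and that of the mutants with altered EZH2. A library held between 32 and 80 such counts, so that each share carries a wide counting error.

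**Figure D2:**
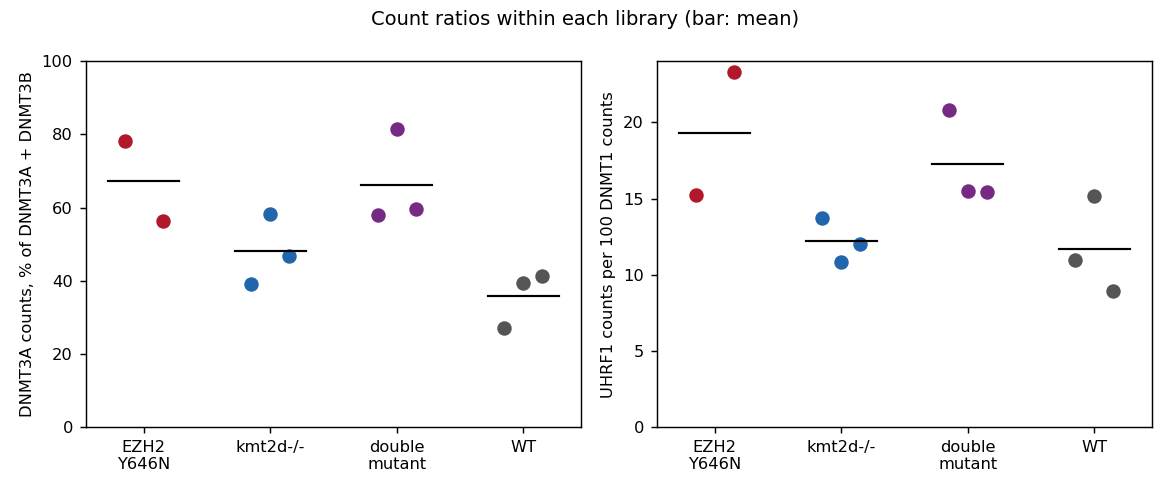
DNMT3A counts as a percentage of DNMT3A plus DNMT3B counts (left) and UHRF1 counts per 100 DNMT1 counts (right) in each library, with the mean of each line as a bar. In the left panel the lowest EZH2 mutant or double mutant library is at 56.4% and the highest WT library at 41.3%.

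Of the TET dioxygenases, TET3 was the only member with enough counts to test. It was at 10.2 and 11.4 CPM in the EZH2 mutant, 12.5, 7.38 and 8.81 CPM in the KMT2D mutant, 12.8, 14.4 and 11.04 CPM in the double mutant and 11.3, 7.14 and 6.90 CPM in WT. WT replicate 1 lay within the range of the mutants and the other two WT libraries lay low. The log2 fold change was 0.42 (95% interval -0.33 to 1.17) in the EZH2 mutant, 0.27 (-0.35 to 0.89) in the KMT2D mutant and 0.62 (-0.01 to 1.26) in the double mutant, and none passed the edgeR test (adjusted p = 0.39, 0.66 and 0.15). TET3 overlaps BOLA3 in RefSeq, so its counts carry the same doubt over strand as those of UHRF1.

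TET1 and TET2 were close to undetected in all lines. TET1 had 1 count in each of the 2 EZH2 mutant libraries, 1, 0 and 1 in the KMT2D mutant, 0 in every double mutant library and 0, 0 and 1 in WT. TET2 had 0 counts in the EZH2 mutant, 1, 0 and 1 in the KMT2D mutant, 0 in the double mutant and 0, 1 and 0 in WT. With no counts, the double mutant allows each gene up to 0.567 CPM, and the EZH2 mutant allows TET2 up to 0.908 CPM, at a limit of 3 counts over the libraries of the line. The highest group value was 0.606 CPM for TET1 in the EZH2 mutant, and no fold is given where both lines lay at or under 3 counts. These limits cover counting error only.

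TDG, the glycosylase that follows TET oxidation, was low and did not pass against WT. It was at 2.05 and 3.47 CPM in the EZH2 mutant, 8.83, 5.37 and 5.74 CPM in the KMT2D mutant, 3.95, 2.27 and 2.91 CPM in the double mutant and 1.70, 4.08 and 5.75 CPM in WT. Its log2 fold change was -0.43 (95% interval -1.67 to 0.81) in the EZH2 mutant, 0.76 (-0.09 to 1.61) in the KMT2D mutant and -0.36 (-1.39 to 0.68) in the double mutant. The double mutant libraries lay below the KMT2D mutant libraries without overlap, at log2 -1.12 (-2.08 to -0.16), which did not pass the edgeR test (adjusted p = 0.056). It was called with upper-quartile factors (log2 -1.27, adjusted p = 0.035) and when only these lines were fitted (log2 -1.17, adjusted p = 0.025), and stood at log2 -0.49 with the abundance trend removed (adjusted p = 0.42). TDG has processed pseudogene copies that can share its reads, so its counts are uncertain.

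MBD4, the glycosylase that binds methylated DNA and removes mismatched thymine, fell in the lines with mutant EZH2. It stood at 11.3 and 34.7 CPM in the EZH2 mutant, 51.8, 44.3 and 42.5 CPM in the KMT2D mutant, 34.5, 23.4 and 25.0 CPM in the double mutant and 39.6, 46.9 and 48.7 CPM in WT. The EZH2 mutant and the double mutant lay below WT without overlap, the EZH2 mutant libraries differed widely from each other, and the KMT2D mutant overlapped WT. The log2 fold change against WT was -0.83 (SE 0.29) in the EZH2 mutant and -0.69 (SE 0.25) in the double mutant, with edgeR adjusted p of 0.034 and 0.048, and 0.03 (95% interval -0.44 to 0.51) in the KMT2D mutant. Without EZH2 mutant replicate 1, the shallowest library, the EZH2 mutant value was log2 -0.36 with an adjusted p of 0.35. That call was also lost without WT replicate 2 (0.068) or replicate 3 (0.083) and when only the EZH2 mutant and WT were fitted (0.057). The double mutant call was lost without WT replicate 2 (0.12) or replicate 3 (0.12) and without double mutant replicate 2 (0.16) or replicate 3 (0.13).

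MBD2, the reader that links methylated DNA to the NuRD complex, had too few counts to test. The EZH2 mutant libraries had 0 and 1 counts, the KMT2D mutant libraries 7, 2 and 5, the double mutant libraries 0, 1 and 1, and the WT libraries 1, 2 and 4. Summed over libraries and set against the line totals, the KMT2D mutant held 2.01 times the WT share (95% counting interval 0.760 to 5.89). The double mutant held 0.188 times the KMT2D mutant share on 2 counts against 14 (0.0207 to 0.819). These intervals cover counting error between the lines' summed counts, not the spread between libraries.

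**Figure D3:**
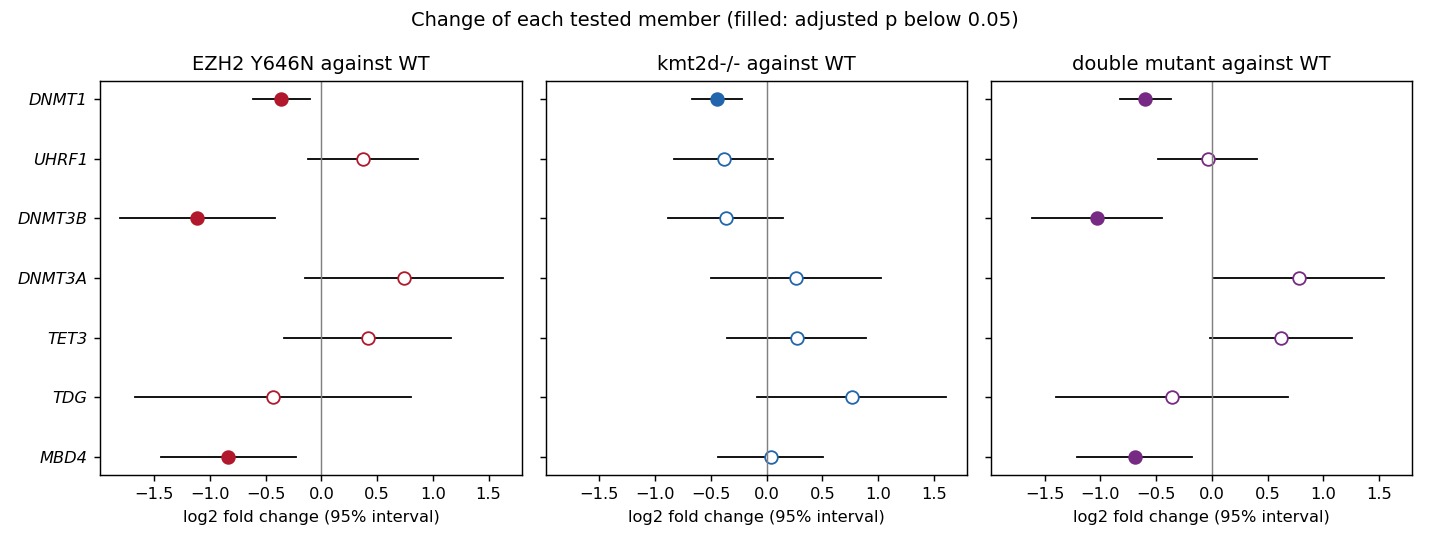
Log2 fold change of each tested gene against WT with its 95% interval, one panel per mutant, filled where the adjusted p was below 0.05. DNMT1 is filled in all 3 panels, at -0.36, -0.45 and -0.60, and DNMT3B and MBD4 are filled in the EZH2 mutant and double mutant panels.

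Between mutants, MBD4 set the double mutant apart from the KMT2D mutant. It was lower by log2 -0.73 (SE 0.25) with an edgeR adjusted p of 0.024, the 1 call among the 7 genes, where 41.9% of all genes were called (21.2% higher and 20.8% lower). That call was lost without KMT2D mutant replicate 1 (adjusted p = 0.097) and without double mutant replicate 2 (0.089) or replicate 3 (0.072). DNMT3B was at log2 -0.66 (95% interval -1.26 to -0.07) and did not pass (adjusted p = 0.069), though it was called with upper-quartile scaling (0.031), under the strict filter (0.0496) and without double mutant replicate 3 (0.031). Upper-quartile scaling placed the median of all genes at log2 -0.16 here and made 36.8% of all calls higher, beside -0.02 and 50.4% with the scaling used. The libraries of these lines did not overlap for DNMT1, DNMT3B, MBD4 and TDG, which is 4 of 7 against 53.3% of all genes. Against the EZH2 mutant this held for 1 of 7, DNMT1, against 30.5% of all genes. Against the EZH2 mutant, where 2.29% of all genes were called (0.715% higher and 1.58% lower), the double mutant showed 0 calls among the 7 genes by edgeR, DESeq2 or limma-voom, and 0 at an unadjusted p below 0.05. The interaction term likewise gave 0 calls by these tools and 0 at an unadjusted p below 0.05, where 3.02% of all genes were called (1.5% higher and 1.52% lower). Its intervals were wide, from log2 -0.48 to 1.38 for DNMT3B and from -0.69 to 0.91 for MBD4.

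The genes whose levels followed each member most closely over the 11 libraries were taken by Pearson correlation of log2 CPM among genes of at least 10 CPM, as a description with no test, since the libraries share their lines and depth. For DNMT1 they were WNT10A (r = 0.942), S1PR2 (0.920) and LINC01480 (0.913), and for DNMT3B they were CACNB3 (0.948), LIX1L (0.944) and TMCC2 (0.929). MBD4 was followed by ANAPC13 (0.961), FAM168A (0.957) and PCNP (0.951), and TDG by NFU1 (0.952) and PRKAR1A (0.942). DNMT3A was followed by TMEM241 (0.953), TRIR (0.910) and SHISA5 (0.898). UHRF1 was followed by NDUFB6 (0.930), GRB2 (0.921) and POFUT1 (0.907), and TET3 by MRPS26 (0.969), TEX264 (0.896) and SMARCAL1 (0.854).

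S1PR2, a sphingosine 1-phosphate receptor that holds B cells in the germinal centre, is also the next tested gene to DNMT1 on chromosome 19 in the RefSeq order of GRCh38.p14. It stood at 56.3 and 53.6 CPM in the EZH2 mutant, 53.9, 57.7 and 55.9 CPM in the KMT2D mutant, 50.3, 60.4 and 40.7 CPM in the double mutant and 112.0, 90.8 and 74.0 CPM in WT. No mutant library reached the WT range. Its log2 fold change against WT was -0.74 (SE 0.20) for the EZH2 mutant, -0.72 (SE 0.17) for the KMT2D mutant and -0.87 (SE 0.17) for the double mutant. S1PR2 was singled out by its likeness to DNMT1 over these same libraries, so these values follow from that choice and are given without a test.

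Apart from S1PR2, no tested gene around DNMT1 was called lower in all 3 mutants. This says little, because only 4.48% of all genes were called lower in the KMT2D mutant. The share of all genes called lower in all 3 mutants was not counted. The calls of S1PR2 follow from its choice by likeness to DNMT1 and are no separate result. Among the 24 tested genes nearest to it, 12 on each side from ZNF426 to KEAP1, 10 were called higher and 2 lower in the EZH2 mutant, with a median log2 fold change of 0.26. In the KMT2D mutant 0 were called higher and 1 lower, which was S1PR2, with a median of -0.06. The double mutant had 8 called higher and 3 lower, with a median of 0.12. DNMT1 itself is not among these 24. Over all genes tested, 17.1% were called higher and 15.1% lower in the EZH2 mutant. The shares were 3.18% and 4.48% in the KMT2D mutant and 12.1% and 11.6% in the double mutant.

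**Figure D4:**
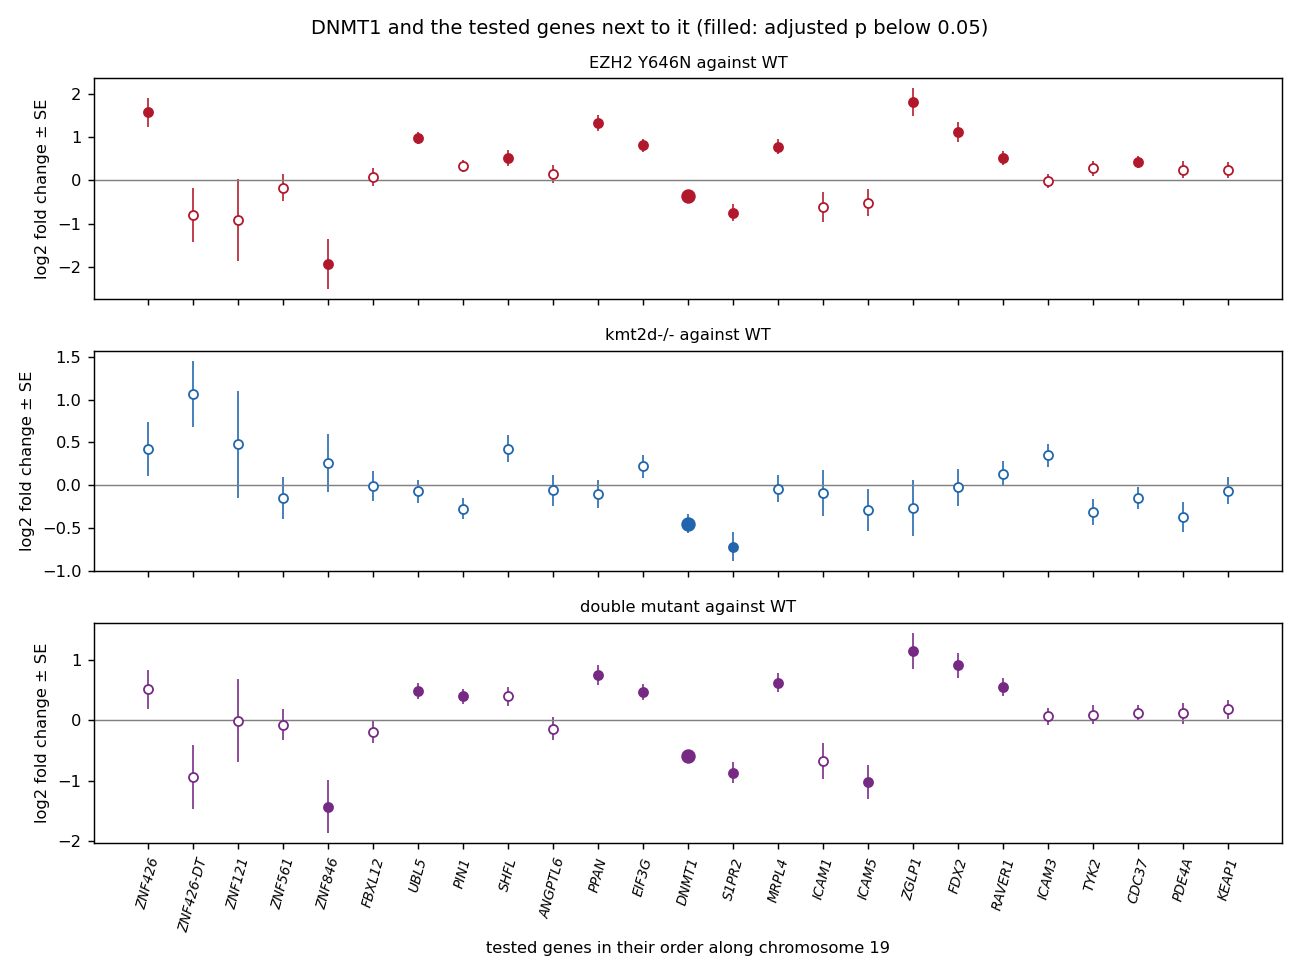
Log2 fold change with its SE for DNMT1 (large point) and the 24 tested genes nearest to it, in their order along chromosome 19, filled where the adjusted p was below 0.05. Only DNMT1 and S1PR2 are filled in the KMT2D mutant panel, and most filled genes in the other panels lie above 0. S1PR2 was chosen by its likeness to DNMT1 over these same libraries.

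Against WT, genes that work with DNMT1 and UHRF1 at the fork were called lower where they were called. Of 4 tested maintenance partners, 0 were called higher and 2 lower in the EZH2 mutant, 0 higher and 1 lower in the KMT2D mutant and 0 higher and 1 lower in the double mutant, beside 15.1%, 4.48% and 11.6% of all genes called lower in these mutants; edgeR at an unadjusted p below 0.05, DESeq2 and limma-voom also gave 0 higher in each. CDCA7, which activates the remodeller HELLS, fell in the EZH2 mutant (log2 -1.21, adjusted p = 0.00066), at 36.9 and 50.6 CPM against 85.4, 88.4 and 136.5 CPM in WT. CDCA7 also fell in the double mutant, to 59.2, 58.9 and 83.1 CPM (log2 -0.63, adjusted p = 0.021), a call lost without WT replicate 3 (log2 -0.39) or double mutant replicate 1 or 2 (log2 -0.54 and -0.55). PCNA, the sliding clamp of the fork, fell in the EZH2 mutant (log2 -0.42, adjusted p = 0.039), a call lost without WT replicate 3 (log2 -0.31) or EZH2 mutant replicate 1 (log2 -0.31). That call was also lost with a replicate block and when only the EZH2 mutant and WT were fitted. LIG1, which seals the new strand, fell in the KMT2D mutant (log2 -1.13, adjusted p = 0.00014), at 94.4, 103.4 and 93.4 CPM against 246.7, 198.9 and 193.6 CPM in WT. The double mutant, also kmt2d-/-, averaged 190.3 CPM of LIG1 beside 213.1 CPM in WT. LIG1 there lay above the KMT2D mutant by log2 0.97 (edgeR adjusted p = 7.6e-05), and its interaction term was log2 1.32 (edgeR adjusted p = 0.0026). LIG1 lies on chromosome 19 among 24 tested neighbours of which 15 were called lower and 0 higher in the KMT2D mutant, with a median of log2 -0.66. In the double mutant against the KMT2D mutant, 16 of these neighbours were called higher and 1 lower, where 41.9% of all genes were called.

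DNMT1 and UHRF1 are transcribed most in cycling cells, so cell cycle genes were read beside them. S phase genes summed to 5325 and 4725 CPM in the EZH2 mutant, 3671, 3793 and 3486 CPM in the KMT2D mutant, 4858, 4967 and 4582 CPM in the double mutant and 4892, 4419 and 4469 CPM in WT. G2 and mitosis genes summed to 2870 and 2566 CPM in the EZH2 mutant, 3295, 3380 and 3097 CPM in the KMT2D mutant, 3258, 3335 and 3214 CPM in the double mutant and 3825, 3368 and 3819 CPM in WT. The S phase sum lay below every WT library in the KMT2D mutant and overlapped WT in the double mutant, and in the EZH2 mutant it was within or above the WT range. The G2 and mitosis sum lay below every WT library in the EZH2 mutant and the double mutant, and in the KMT2D mutant replicate 2 alone reached the WT range. Of 20 tested S phase genes, 4 were called higher and 3 lower in the EZH2 mutant, 0 higher and 5 lower in the KMT2D mutant and 0 higher and 1 lower in the double mutant, where 32.3%, 7.66% and 23.7% of all genes were called. The EZH2 mutant had 1 S phase gene higher with upper-quartile factors, and 0 higher and 5 lower with the abundance trend removed, under which the KMT2D mutant had 1 lower. Of 20 tested G2 and mitosis genes, 12 were called lower in the EZH2 mutant (7 without EZH2 mutant replicate 1), with 1 for the KMT2D mutant and 3 for the double mutant (6 with upper-quartile factors, no filter or the abundance trend removed), and 0 were higher in any of them by edgeR, DESeq2 or limma-voom. Leaving out 1 library put the S phase genes called lower in the KMT2D mutant at 2 without WT replicate 1, WT replicate 3 or KMT2D mutant replicate 1, 3 without WT replicate 2 and 1 without KMT2D mutant replicate 3. It put those called higher in the EZH2 mutant at 1 when EZH2 mutant replicate 1 was left out, and at 2 when its replicate 2, WT replicate 2 or WT replicate 3 was. The part of the cell cycle in the DNMT1 values was not tested.

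Base excision repair, which completes the removal of bases cut out by TDG and MBD4, held opposite moves. NTHL1, a glycosylase for oxidised pyrimidines, rose in the EZH2 mutant (log2 1.16, adjusted p = 4.2e-05) and in the double mutant (log2 1.00, adjusted p = 8.9e-05). Its libraries held 264.2 and 202.5 CPM in the EZH2 mutant and 204.8, 231.9 and 184.8 CPM in the double mutant, against 117.7, 91.1 and 103.1 CPM in WT. APEX1, the endonuclease that cuts the abasic site, rose by log2 0.95 (adjusted p = 0.00028) in the EZH2 mutant and 0.76 (adjusted p = 0.0010) in the double mutant. NEIL1, another glycosylase, fell in the EZH2 mutant (log2 -0.76, adjusted p = 0.0022). XRCC1, a scaffold at the strand break, fell in the KMT2D mutant (log2 -1.13, adjusted p = 0.0038), to a mean of 15.2 CPM against 32.7 CPM in WT. The double mutant, also kmt2d-/-, averaged 35.7 CPM of XRCC1, above the KMT2D mutant by log2 1.26 (edgeR adjusted p = 0.00034). XRCC1 lies on chromosome 19, where 14 of its 24 tested neighbours were also called lower in the KMT2D mutant. Of 10 tested genes, 2 were called higher and 1 lower in the EZH2 mutant, where 32.3% of all genes were called. In the KMT2D mutant 0 were higher and 2 lower, where 7.66% of all genes were called. The double mutant had 2 of the 10 called higher and 0 lower, where 23.7% of all genes were called. At an unadjusted p below 0.05, 1 was higher in the KMT2D mutant and 1 lower in the double mutant, and DESeq2 and limma-voom called 0 in both. Under 8 of 15 alternatives 1 of 10 was called lower in the double mutant.

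Of the other readers of methylated DNA, 7 were tested. In the EZH2 mutant, where 32.3% of all genes were called, 2 of them were called higher and 1 lower. The number called higher was 1 with upper-quartile factors, DESeq2, a replicate block or only the groups compared. It was also 1 without WT replicate 1 or WT replicate 3. The number called lower was 0 with the strict filter, limma-voom, a replicate block or the abundance trend removed. MBD3, the NuRD subunit related to MBD2, rose in the EZH2 mutant (log2 1.82, SE 0.41, adjusted p = 0.0022), at 13.3 and 11.4 CPM against 3.39, 4.42 and 2.30 CPM in WT. The double mutant libraries held 5.92, 8.31 and 6.39 CPM of MBD3, above every WT library, which did not pass (log2 0.98, adjusted p = 0.078). The call of ZBTB33, which encodes the reader Kaiso, rested on 3 and 1 counts in the EZH2 mutant against 19, 23 and 20 in WT and was lost when any library of either line was left out. The KMT2D mutant and the double mutant had 0 calls among the 7 by edgeR, DESeq2 or limma-voom, and 0 and 2 at an unadjusted p below 0.05. Over all genes, edgeR called 7.66% and 23.7% in these mutants.

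The NuRD complex, which MBD2 and MBD3 bring to chromatin, had 10 tested genes. In the EZH2 mutant 4 were called higher and 2 lower (1 higher and 1 lower without EZH2 mutant replicate 1), in the double mutant 1 and 1, and in the KMT2D mutant 0 and 0. CHD3, a remodelling ATPase of the complex, rose by log2 1.05 (adjusted p = 0.00025) in the EZH2 mutant and 0.92 (adjusted p = 0.00047) in the double mutant. Its libraries held 373.8 and 291.9 CPM in the EZH2 mutant and 284.2, 342.9 and 279.0 CPM in the double mutant, against 190.1, 138.7 and 152.6 CPM in WT. RBBP4, a histone-binding subunit shared with Polycomb repressive complex 2, fell in the EZH2 mutant (log2 -0.89, adjusted p = 0.0016) and in the double mutant (log2 -0.63, adjusted p = 0.0075). MTA2 rose in the EZH2 mutant (log2 1.14, adjusted p = 0.013), though not without EZH2 mutant replicate 1 (log2 0.66, adjusted p = 0.19). MTA3 rose there too (log2 0.47, adjusted p = 0.015), a call lost in 6 of 14 alternatives. It was lost with upper-quartile factors, with the abundance trend removed and when only the EZH2 mutant and WT were fitted. It was also lost without WT replicate 2 (log2 0.40) or EZH2 mutant replicate 1 (log2 0.50) or 2 (log2 0.47). In the KMT2D mutant 1 gene was higher and 3 lower at an unadjusted p below 0.05, and DESeq2 and limma-voom called 0. Over all genes, edgeR called 32.3% in the EZH2 mutant, 23.7% in the double mutant and 7.66% in the KMT2D mutant.

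Of 5 tested TET cofactor genes and regulators, 2 were called higher in the EZH2 mutant and 1 in the double mutant, beside 17.1% and 12.1% of all genes. The EZH2 mutant count was 0 with upper-quartile factors or without WT replicate 3. D2HGDH, which clears the TET inhibitor 2-hydroxyglutarate, rose by log2 0.64 (adjusted p = 0.015) in the EZH2 mutant and 0.63 (adjusted p = 0.012) in the double mutant. Its EZH2 mutant call was lost with upper-quartile factors and without WT replicate 3 (log2 0.50) or EZH2 mutant replicate 2 (log2 0.58). Its double mutant call was lost without WT replicate 3 (log2 0.48) or double mutant replicate 2 (log2 0.50). CXXC5, a regulator of TET enzymes, had a call in the EZH2 mutant (log2 0.43, adjusted p = 0.033) that was lost in 10 of 14 alternatives. Of 9 methyl donor genes, 1 was called higher and 2 lower in the EZH2 mutant, where 32.3% of all genes were called, and 1 higher in the double mutant, where 23.7% were. MTHFD1 of the folate cycle rose by log2 0.66 (adjusted p = 0.0013) in the EZH2 mutant and 0.45 (adjusted p = 0.012) in the double mutant. The double mutant call was lost without WT replicate 2 or double mutant replicate 3 (log2 0.36 each) and with the abundance trend removed. SHMT2, which makes mitochondrial one-carbon units, fell in the EZH2 mutant (log2 -0.68, adjusted p = 0.0018). MAT2B, a regulator of S-adenosylmethionine synthesis, fell there as well (log2 -1.14, adjusted p = 0.028), with log2 -0.65 and no call without EZH2 mutant replicate 1 and no call without WT replicate 2 (log2 -1.20) or 3 (log2 -1.02). Of 4 tested H3K36 methyltransferases, whose mark DNMT3 enzymes bind, NSD1 rose in the EZH2 mutant (log2 0.75, adjusted p = 0.012), a call lost without EZH2 mutant replicate 2 (log2 0.60). None of these 3 lists had a call in the KMT2D mutant by edgeR, while limma-voom called 1 TET cofactor gene higher and DESeq2 called 0. At an unadjusted p below 0.05 the KMT2D mutant had 1 TET cofactor gene higher and 1 lower, 0 methyl donor genes and 1 H3K36 methyltransferase lower.

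**Figure D5:**
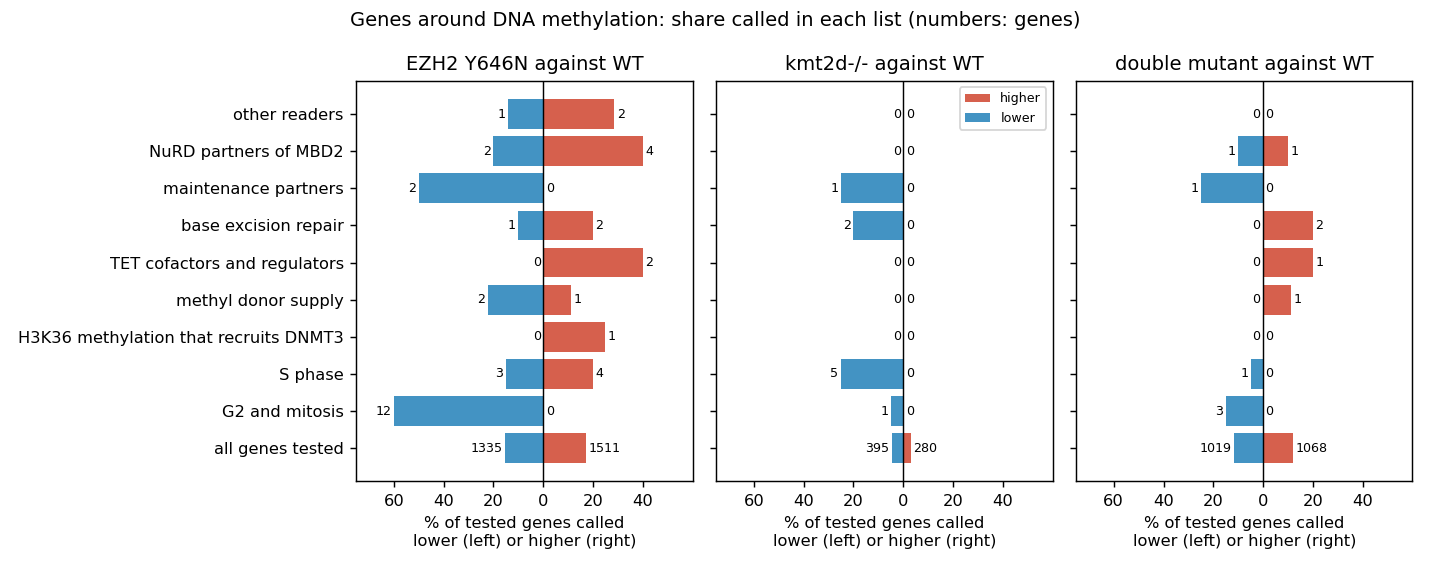
Percentage of the tested genes of each list that were called lower (left of 0) or higher (right of 0) than WT in each mutant, with the number of genes beside each bar and all genes tested at the bottom. The largest share is that of G2 and mitosis genes in the EZH2 mutant, 12 of 20 called lower.

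Genes known to be kept silent by promoter methylation outside the germ line were read as a last group. All 16 were in the table, and none had enough counts to test. Their counts summed to 2 in the EZH2 mutant, 0 in the KMT2D mutant, 1 in the double mutant and 0 in WT. With 0 counts over all 16 genes, the KMT2D mutant allows a summed level of up to 0.431 CPM and WT up to 0.428 CPM at the limit of 3 counts per line. A gain of these transcripts was not detectable at this depth in any mutant.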

How the data were processed

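RNA of 4 OCI-Ly7 lines was analysed from a table of counts per gene that the authors deposited. Per the submitters' processing notes, the tools named are Trim Galore 0.6.0, cutadapt 1.15, FastQC, STAR 2.7.0f and DESeq2, without their roles. The deposited counts are called corrected, but what was corrected, the genome build and annotation, the counting program and the strand are not given in the sources used here. The series lists 12 samples, of which 11 have a column, and EZH2 mutant replicate 3 was not analysed here. The mark DM in column names was read as double mutant. Totals ran from 1118710 to 3107871 counts, and a count of 3 stands for 0.965 CPM at the largest total and 2.68 CPM at the smallest.

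The test was run with edgeR 4.0.16 under R 4.3.3: filterByExpr with a minimum count of 10 left 8813 genes, TMM factors, and a robust quasi-likelihood fit over all 11 libraries with 1 term per line. P-values were adjusted by Benjamini-Hochberg over all genes tested, with a threshold of 0.05. Standard errors are the log2 fold change divided by the square root of F. Normalised CPM are counts scaled to a fixed total by the TMM-scaled library size. Genes below the filter were compared by summed counts with exact 95% intervals. Alternatives were upper-quartile or RLE factors, no filter, a strict filter of 10 CPM, DESeq2 1.42.0, limma-voom (limma 3.58.1), a replicate block, removal of an abundance trend (spline of 5 degrees of freedom), only the groups compared, and leaving out each library.

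The members and lists were chosen with earlier results of these data known. Of each list at most 4 genes with the smallest adjusted p in a comparison were named, and for each tested member the 3 genes of at least 10 mean CPM with the highest Pearson correlation of log2 CPM (prior count 2) over the libraries. Which of the listed genes are given library by library was chosen after their values were seen. Some genes that the naming rule selects are not reported here. Neighbours and promoter windows came from RefSeq tables of GRCh38.p14, which held a window for all 10 genes, 21 in all. Figures were drawn in matplotlib 3.10.9, with numpy 2.4.6 and pandas 2.3.3 under Python 3.11.15.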

Additional observations from a re-analysis of the deposited data

How the results depend on the processing

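The number of the 7 genes called changed with the processing as follows. In the EZH2 mutant against WT it was 3, then 1 when only these lines were fitted and 0 to 2 when 1 library was left out, with 0 without EZH2 mutant replicate 1. In the KMT2D mutant against WT it was 1, then 0 to 1 with 1 library left out, with 0 without KMT2D mutant replicate 1 or 3. In the double mutant against WT it was 3, then 1 to 3 with 1 library left out, with 1 without double mutant replicate 2. In the double mutant against the KMT2D mutant it was 1, then 4 with upper-quartile factors, 2 with the strict filter, 2 with the abundance trend removed, 2 when only these lines were fitted and 0 to 1 with 1 library left out, with 0 without KMT2D mutant replicate 1 or double mutant replicate 2. The causes were not tested. Leaving out an EZH2 mutant library leaves that line with 1 library, which is then assumed to vary like the others. The interaction was not fitted with only the groups compared.

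Values that changed sign had not passed the test. With the abundance trend removed, TDG was at log2 0.10 in the EZH2 mutant and 0.080 in the double mutant against WT, and the double mutant against the EZH2 mutant was at -0.073 for DNMT3A, -0.014 for DNMT3B and -0.022 for TDG. DESeq2 gave -0.0020 for DNMT3A in that comparison. Leaving out 1 library moved MBD4 in the KMT2D mutant against WT between -0.061 and 0.12 and UHRF1 in the double mutant against WT between -0.26 and 0.20. In the double mutant against the EZH2 mutant it moved DNMT3A between -0.56 and 0.64, DNMT3B between -0.15 and 0.24, TDG between -0.17 and 0.61 and MBD4 between -0.33 and 1.32. It moved the interaction of DNMT3A between -0.82 and 0.39, UHRF1 between -0.25 and 0.31, TET3 between -0.29 and 0.24 and MBD4 between -0.35 and 1.29.

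Replicate numbers are shared between lines but mark no stated batch. Deviations from the line means of same-numbered libraries correlated at -0.29 to 0.38, with 5 of 15 pairs over 0.1. Those of differently numbered libraries correlated at -0.38 to 0.29, with 10 of 30 pairs over 0.1. The EZH2 mutant libraries deviate from their shared mean by equal and opposite amounts, so part of both ranges is forced. The numbers were not taken to pair libraries. With a replicate block, 2 genes were called in the EZH2 mutant against WT, where MBD4 was at log2 -0.88 (adjusted p = 0.053), and MBD4 was not called in the double mutant against WT (log2 -0.68, adjusted p = 0.073). The block put DNMT3A at -0.0038 and DNMT3B at -0.034 in the double mutant against the EZH2 mutant, and the interaction of UHRF1 at 0.062 and TET3 at 0.021.

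Depth limits these results. TET1, TET2 and MBD2 had 5, 3 and 24 counts over all libraries, and TDG had 107, so that absence and modest change cannot be told apart for them.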
